A study of Mus musculus with 12 samples.

Results

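The part described here is a chosen set of 8 Notch receptor and ligand genes of the mouse. They were matched exactly on gene name among the 55335 genes counted. They comprise 4 receptors (Notch1, Notch2, Notch3 and Notch4) and 4 ligands (Dll1, Dll4, Jag1 and Jag2). All 8 passed the filter on low counts, which kept 22635 genes for testing. The libraries came from muscle stem cells (MuSCs) sorted for ZsGreen by FACS from the hindlimb muscles of Pax7-ZsGreen mice, 3 to 6 months old, so every group carried this reporter. 4 groups of 3 libraries were compared. F cells were freshly isolated and lysed during sorting, whereas the other groups were grown on Matrigel and fibronectin and lysed on the plate. Uncompressed cultures were kept for 2 days (2d-U) or 5 days (5d-U), whereas the 2+3d-C group had 2 days of culture and was then held under a compression pillar device for 3 days. The comparison with 5d-U matches the total time in culture, the comparison with 2d-U gives the change from the start of compression, and the comparison with F asks how compressed cells differ from cells that were never cultured.

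Notch receptors are single-pass membrane proteins that bind Delta-like (Dll) or Jagged (Jag) ligands on a neighbouring cell. Binding exposes the receptor to cleavage by ADAM proteases and then by gamma-secretase, which frees the intracellular domain to enter the nucleus and join RBPJ and Mastermind proteins on target genes such as those of the Hes and Hey families. In skeletal muscle, Notch signaling is known to keep MuSCs quiescent and Pax7-positive and to fall as they activate.

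The receptors are encoded at chr2:26457903-26516663 (Notch1, minus strand), chr3:98013527-98150361 (Notch2, plus strand), chr17:32120820-32166852 (Notch3, minus strand) and chr17:34564268-34588503 (Notch4, plus strand) of mm10. The ligands lie at chr17:15367354-15376872 (Dll1, minus strand), chr2:119325784-119335962 (Dll4, plus strand), chr2:137081456-137116644 (Jag1, minus strand) and chr12:112907819-112929776 (Jag2, minus strand). Reads were counted over all exons of a gene, untranslated regions included, and without regard to strand. Exons of other genes covered 9.76% of the exon length of Notch1, 5.02% of Notch2, 6.03% of Notch3 and 5.56% of Dll4, and none of the other 4, and a read that touches exons of more than 1 gene is by default left out of the count of both.

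Each library had between 12540745 and 62424851 reads on genes. In 4 libraries (replicates 1 and 6 of 5d-U, and replicates 4 and 5 of F) genes of silent families such as olfactory receptors carried 3.81, 0.635, 5.03 and 7.13 reads per kb of exon, against 0.00937 to 0.220 in the other 8. At that density, 81.2% of the 38 Notch3 reads and 69.9% of the 21 Dll4 reads of 5d-U replicate 1 would be expected from exon length alone, whereas for the 2+3d-C libraries the expected share of Notch3 reads was at most 0.0349%. The labels do not say which libraries share animals or cultures, so the p-values measure the spread between libraries, which may be technical in part. In bulk RNA, fewer cells of a type and less RNA per cell cannot be told apart.

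3 members rose against both uncompressed groups, namely Notch3, Dll4 and Jag1, and the bases just upstream of their start sites are shown to place these genes on the genome. RefSeq windows of GRCm38.p6, the mm10 assembly, were found for all 8 members. The sequences below read 5′ to 3′ on the strand of the gene and stop before the start site in both RefSeq and the count files. Capitals mark CG dinucleotides.
Notch3, chr17:32166891-32167140, minus strand: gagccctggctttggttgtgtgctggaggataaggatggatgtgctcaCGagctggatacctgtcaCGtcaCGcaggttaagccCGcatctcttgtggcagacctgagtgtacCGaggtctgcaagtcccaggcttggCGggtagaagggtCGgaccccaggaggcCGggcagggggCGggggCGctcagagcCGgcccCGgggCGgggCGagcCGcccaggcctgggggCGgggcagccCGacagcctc
Dll4, chr2:119325534-119325783, plus strand: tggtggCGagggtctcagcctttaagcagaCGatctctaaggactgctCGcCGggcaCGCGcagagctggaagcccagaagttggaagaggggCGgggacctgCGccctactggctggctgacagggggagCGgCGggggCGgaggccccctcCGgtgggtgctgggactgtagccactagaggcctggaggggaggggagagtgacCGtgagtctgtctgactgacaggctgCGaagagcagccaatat
Jag1, chr2:137116645-137116770, minus strand: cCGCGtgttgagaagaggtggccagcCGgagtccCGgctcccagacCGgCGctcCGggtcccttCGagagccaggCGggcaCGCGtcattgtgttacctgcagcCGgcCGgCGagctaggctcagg
The 250 bases before the RefSeq start site held 17 CG dinucleotides in Notch3, 14 in Dll4 and 20 in Jag1, whereas the median over 32851 promoter windows was 6. Jag2, which fell, had the most of the 8 members, with 54. The core motif of RBPJ (TGGGAA, either strand) was not among the letters of any member's 250 bases, and 21.6% of all windows held it. The E-box CAGCTG, which reads the same on both strands and is in 13% of all windows, occurred in Jag1 and in the upstream window of Dll1, which has a pair of RefSeq start sites. These matches describe letters and not binding.

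The levels of each member are given as RPKM, that is, reads per kb of exon scaled to library size, and groups were compared with edgeR's quasi-likelihood test on the counts. Calls required an adjusted p-value below 0.05, with all tested genes in the adjustment. Against 5d-U, 3 of the 8 members were higher in 2+3d-C cells and 1 was lower. In this comparison 22.6% of all tested genes were called, 9.14% as higher and 13.4% as lower. Against 2d-U, 5 members were higher and 1 was lower, where 24.6% of all tested genes were called, 16.0% as higher and 8.63% as lower. The median log2 fold change of the 8 members was 3.01 against 5d-U and 4.31 against 2d-U, whereas the medians over all tested genes were -1.05 and 0. Among genes whose mean reached 5 CPM, those medians were -0.06 and 0.20. Libraries did not overlap for 4 members higher and 2 lower against 5d-U, where 12.6% and 29.7% of all tested genes were so placed. Against 2d-U this held for 5 higher and 2 lower, where the shares were 18.1% and 17.4%. The comparisons share the compressed libraries, so their values for a member are not independent.

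**Figure D1:**
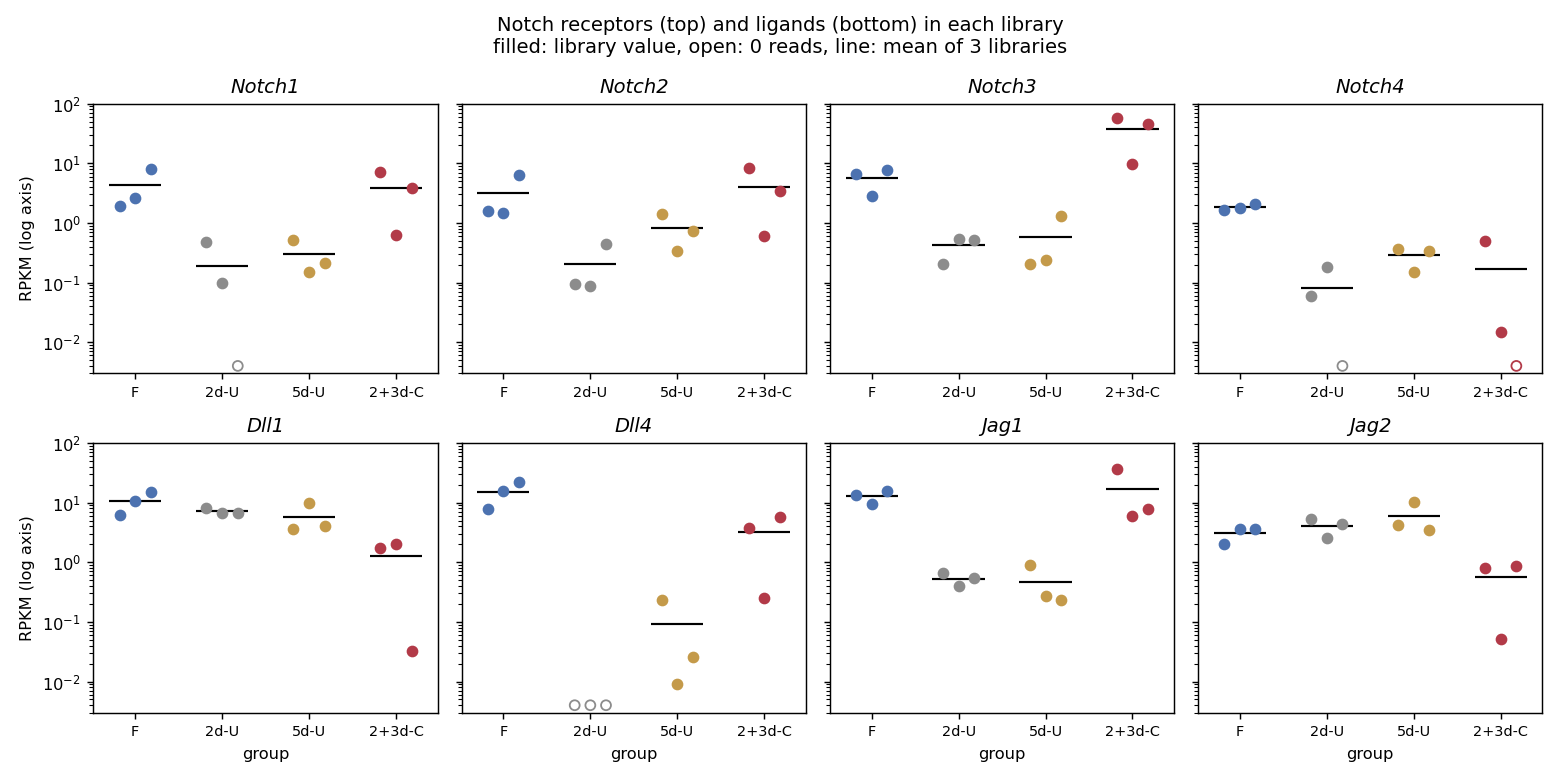
RPKM on a log axis of the 4 Notch receptors (top) and 4 ligands (bottom) in each library of the 4 groups, with filled points for libraries in order of replicate number, open points for libraries with 0 reads and lines for the mean of 3 libraries. Notch3 lies above 9 RPKM in all 3 compressed libraries and under 8 in all others, whereas Dll1 and Jag2 lie lowest in the compressed libraries.

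Notch3, a receptor known in vessel-associated cells and in MuSCs, had the largest rise of the receptors. Its RPKM was 56.6, 9.66 and 46.4 in replicates 4, 5 and 10 of 2+3d-C. 5d-U libraries had 0.204, 0.237 and 1.28, and 2d-U libraries had 0.206, 0.547 and 0.515. F libraries had 6.67, 2.85 and 7.75. All 3 compressed libraries were thus above all 9 others, although replicate 5, the shallowest library, was close to the highest F library. Compared with 5d-U, Notch3 was 65.6-fold higher under compression (log2 fold change 6.04, 95% interval 4.08 to 7.99, adjusted p = 0.000422) and 89.1-fold higher than in 2d-U (6.48, 4.48 to 8.47, adjusted p = 0.000244). It was called in both comparisons under all 21 alternatives tried.

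Notch1, the receptor best known in MuSC quiescence, had 7.22, 0.628 and 3.79 RPKM in 2+3d-C. Its levels were 0.526, 0.150 and 0.213 in 5d-U, 0.479 and 0.0991 in replicates 1 and 2 of 2d-U with 0 reads in replicate 3, and 1.95, 2.64 and 8.17 in F. The compressed libraries lay above all uncompressed ones and overlapped the fresh ones. The rise was called against 2d-U (log2 fold change 4.32, 95% interval 1.41 to 7.23, adjusted p = 0.0321) and not against 5d-U (3.71, 0.88 to 6.55, adjusted p = 0.0563). The call against 2d-U was lost without 2d-U replicate 2 (adjusted p = 0.0777) and without 2+3d-C replicate 4 (0.0791), and in all it held in 15 of the 21 alternatives. It was also lost without TMM (0.0597), with the 2 groups alone (0.0990) and without the libraries with silent-family reads (0.120). DESeq2 called Notch1 against 5d-U (0.00752), and it was called there in 10 of the 21 alternatives.

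Notch2, a receptor broadly found in muscle cells, had 8.23, 0.594 and 3.41 RPKM in 2+3d-C, 1.39, 0.333 and 0.739 after 5 days without it and 0.0929, 0.0872 and 0.444 after 2 days. It was higher than in 2d-U, where the libraries did not overlap (log2 fold change 4.29, 95% interval 2.05 to 6.53, adjusted p = 0.00881). The difference to 5d-U, where they did, was 2.31 (0.26 to 4.36, adjusted p = 0.0885), which DESeq2 called (0.0324). F libraries had 1.56, 1.44 and 6.36 RPKM, within the range of the compressed ones.

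Notch4, the receptor known from endothelial cells, went with the other receptors in F and not in 2+3d-C. It had 1.63, 1.81 and 2.10 RPKM in F. In 2+3d-C it had 211 reads (0.491 RPKM) in replicate 4, 1 read in replicate 5 and 0 reads in replicate 10. It was not called against 5d-U (log2 fold change -0.72, 95% interval -3.92 to 2.47, adjusted p = 0.723) or 2d-U (1.15, -2.09 to 4.38, adjusted p = 0.675), and these intervals leave room for a change in either direction. Without replicate 4 of 2+3d-C, 1 and 0 reads of Notch4 remained under compression, which puts it at least 9.29-fold under 5d-U (adjusted p = 0.0590) and at least 59.5-fold under F (adjusted p = 0.0254).

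Among the ligands, Jag1 rose. Its RPKM was 36.2, 5.87 and 7.80 in 2+3d-C, 0.903, 0.275 and 0.235 in 5d-U cells, 0.652, 0.397 and 0.540 in 2d-U cells and 13.4, 9.53 and 15.9 in F cells. The compressed libraries did not overlap the uncompressed ones and spread around the fresh ones, with replicate 4 far above replicates 5 and 10. Jag1 was 35.2-fold higher than in 5d-U (log2 fold change 5.14, 95% interval 3.44 to 6.84, adjusted p = 0.000488) and 31.3-fold higher than in 2d-U (4.97, 3.29 to 6.65, adjusted p = 0.00049). Without replicate 4 the log2 fold change against 5d-U was 3.85 (adjusted p = 0.000726).

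Dll4, the Delta-like ligand best known from endothelial tip cells, had no read in any 2d-U library and 21, 1 and 2 reads in 5d-U. In 2+3d-C it had 757, 8 and 477 reads, or 3.69, 0.251 and 5.66 RPKM, and in F 7.67, 15.9 and 22.0 RPKM. The 8 reads of compressed replicate 5 lay barely above 5d-U replicate 1. Dll4 was 35.4-fold higher than in 5d-U (log2 fold change 5.14, 95% interval 2.43 to 7.86, adjusted p = 0.0112) and at least 154-fold higher than in 2d-U when 3 reads are set for each 2d-U library (adjusted p = 0.000796).

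Between the groups, markers of endothelial cells moved with Dll4. The summed level of 12 such markers was 1539 to 2581 CPM in fresh cells and 359 to 413 under compression. It was 13.2 to 17.1 in 2d-U cells and 8.65 to 53.4 in 5d-U cells. Over 3 reads were 11 to 12 of them in each compressed library, 7 to 12 in 5d-U libraries and 5 to 9 in 2d-U libraries. Pecam1 was 392, 526 and 484 CPM in F, 63.7, 14.1 and 31.4 in 2+3d-C and at most 5.13 in the 6 uncompressed libraries. Flt1 was at 0 in all 2d-U libraries and at 13.4 to 41.6 CPM in 2+3d-C. Within the compressed libraries the sum stayed at 359 to 413 CPM, whereas Dll4 ran from 0.966 to 21.8 CPM. Pecam1 and Flt1 were lowest in replicate 5 there, but the sum over all 12 markers varied much less than these did. Dll4, Jag1, Jag2, Notch1, Notch2 and Notch3 were also lowest in replicate 5. Dll1 and Notch4 were lowest in replicate 10. The part of these cells in the levels of Dll4, Notch4, Notch1 and Jag1 was not tested.

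Dll1 and Jag2 went the other way. Jag2, a Jagged ligand of activated muscle cells, had 0.805, 0.0520 and 0.853 RPKM in 2+3d-C (299, 3 and 130 reads) against 4.19, 10.1 and 3.53 in 5d-U cells, 5.31, 2.54 and 4.37 in 2d-U cells and 2.00, 3.61 and 3.56 in F. It was lowest in the compressed libraries, with no overlap with any other group. It fell by 3.35 on the log2 scale against 5d-U (95% interval -5.06 to -1.64, adjusted p = 0.00821) and had a log2 fold change of -2.81 against 2d-U (-4.48 to -1.14, adjusted p = 0.0177). The call against 2d-U was lost with the 2 groups alone (0.0653) and without the libraries with silent-family reads (0.0719).

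Dll1, a Delta-like ligand expressed by differentiating myogenic cells, had 1.71, 2.03 and 0.0325 RPKM in 2+3d-C, with 3 reads in replicate 10. It had 3.63, 9.73 and 4.08 RPKM in 5d-U cells, 8.0, 6.65 and 6.82 in 2d-U cells and 6.24, 10.8 and 14.8 in F. The compressed libraries were again below all others. The log2 fold change of -2.22 against 5d-U (95% interval -4.13 to -0.30) and of -2.52 against 2d-U (-4.45 to -0.58) did not pass the threshold (adjusted p = 0.0830 and 0.0558), although DESeq2 called the latter (0.0127).

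**Figure D2:**
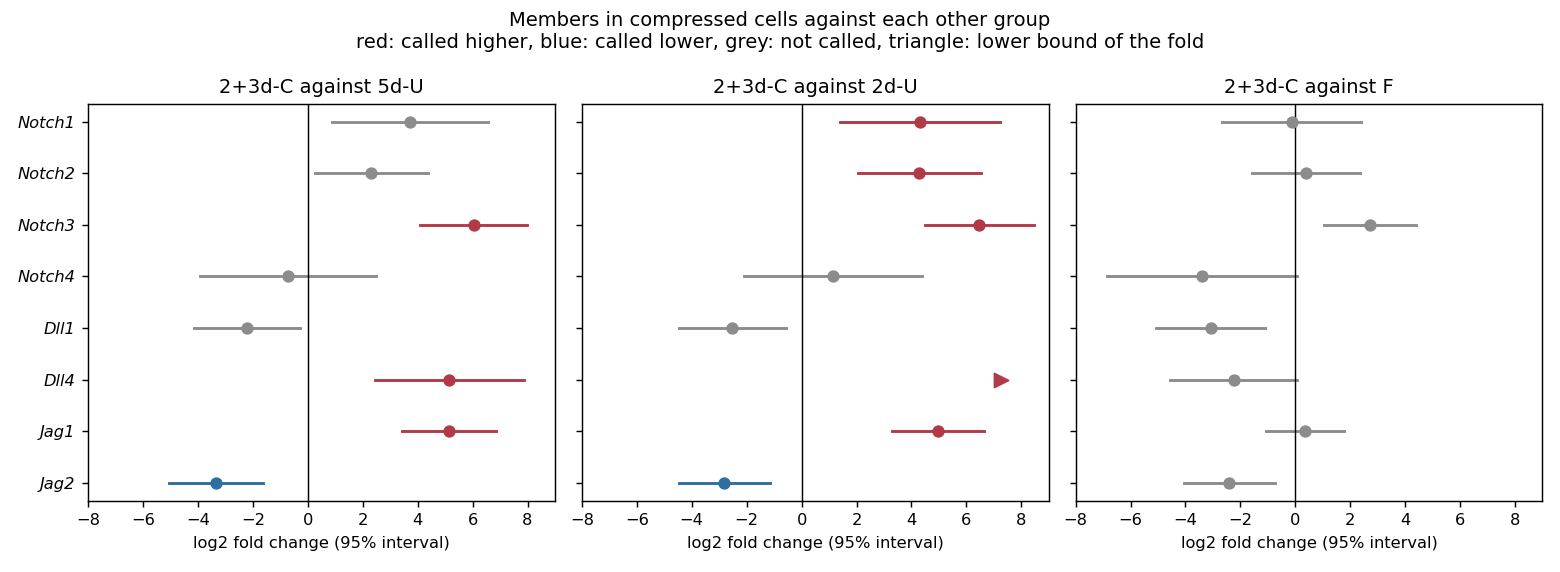
Log2 fold changes of the 8 members in 2+3d-C against 5d-U, 2d-U and F, with points for the fitted value, bars for the 95% interval and colors for the call; the triangle for Dll4 against 2d-U is the lower bound of the fold, at least 154-fold. Notch3, Dll4 and Jag1 are called higher and Jag2 lower against both uncompressed groups, and no member is called against F.

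Without the 4 libraries that carried reads on silent families, 1 library was left in 5d-U and 1 in F, and each was assumed to vary like the other groups. Notch3 then had a log2 fold change of 7.31 against 5d-U (adjusted p = 0.0297). The differences of Jag1 (5.91, adjusted p = 0.0564), Jag2 (-4.12, adjusted p = 0.0729) and Dll4 (at least 117.7-fold higher, adjusted p = 0.164) kept their direction without being called. Whichever of the 12 libraries was left out, Notch3, Dll4, Jag1 and Jag2 kept their calls against 5d-U. Over all 21 alternatives, Jag1 was called in 20, Jag2 in 20 and Dll4 in 19 against 5d-U.

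Against F, none of the 8 members was called in 2+3d-C cells by edgeR, where 6.40% of all tested genes were called, 1.94% as higher and 4.47% as lower. 3 members had an unadjusted p under 0.05 (Notch3, Dll1 and Jag2), and DESeq2 called these 3. Notch3 was 6.53-fold higher in 2+3d-C than in F, with no overlap (log2 fold change 2.71, 95% interval 1.03 to 4.38, adjusted p = 0.0528), and it was called in 10 of the 21 alternatives. Dll1 (-3.09, -5.07 to -1.10, adjusted p = 0.0581) and Jag2 (-2.40, -4.04 to -0.75, adjusted p = 0.0707) were lower in every compressed library than in every fresh one, and so were Dll4 (-2.24, -4.56 to 0.08, adjusted p = 0.146) and Notch4 (-3.40, -6.87 to 0.07, adjusted p = 0.142). The intervals of Notch1 (-2.66 to 2.40), Notch2 (-1.56 to 2.34) and Jag1 (-1.06 to 1.78) spanned 0, and their signs depended on the setting. Those of Notch2 and Jag1 turned without TMM scaling (-0.05 and -0.06) and without 2+3d-C replicate 4 (-0.63 and -0.91). Notch1 went from -0.13 to 1.01 without the libraries with silent-family reads. Libraries did not overlap for 1 member higher and 4 lower, where 8.79% and 18.3% of all tested genes were so placed.

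The uncompressed cultures gave the other side of this pattern. Against F, 6 of the 8 members were lower in 2d-U cells, namely all 4 receptors, Dll4 and Jag1. In that comparison 43.8% of all tested genes were called, 33.3% as lower, and the median log2 fold change was -4.18 over the members and -1.63 over all tested genes. The log2 fold change was -4.45 for Notch1 (adjusted p = 0.0223), -3.90 for Notch2 (0.0110), -3.77 for Notch3 (0.00397), -4.55 for Notch4 (0.0457) and -4.61 for Jag1 (0.000785). Dll4 was at least 729-fold lower (adjusted p = 0.00036). Without F replicate 5 the calls of Notch1 (adjusted p = 0.0751), Notch2 (0.0546) and Notch4 (0.0958) were lost. The Notch1 call was also lost without 2d-U replicate 2 (0.0560), and the Notch4 call without 5d-U replicate 6 (0.0561), 2d-U replicate 1 (0.101), 2d-U replicate 3 (0.0875) or F replicate 4 (0.0862). Dll1 and Jag2 were not called, with log2 fold changes of -0.57 (95% interval -2.40 to 1.26) and 0.41 (-1.14 to 1.97).

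No member was called between 5d-U and 2d-U by edgeR, where 2.12% of all tested genes were called, 1.87% as higher. Only Dll4 had an unadjusted p under 0.05, and DESeq2 called it; its 21, 1 and 2 reads in 5d-U stood against 0 in 2d-U. Against F, 3 members were lower in 5d-U (Notch3, Dll4 and Jag1), where 20.5% of all tested genes were called, 8.90% as lower. Log2 fold changes were -3.33 for Notch3 (adjusted p = 0.00859), -4.78 for Jag1 (0.000779) and -7.39 for Dll4 (0.00229). With 1 library against 1, after the 4 libraries with silent-family reads were left out, none of the 3 was called, and the values were -4.80 for Notch3 (adjusted p = 0.137), -5.59 for Jag1 (0.126) and at least 282-fold lower for Dll4 (0.212).

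The make-up of the receptor transcripts differed in the compressed cells. Notch3 took 78.0%, 88.7% and 86.6% of the summed receptor RPKM in 2+3d-C, and 31.8% to 56.5% in F, 24.6% to 59.9% in 2d-U and 8.19% to 49.8% in 5d-U. Its share in every compressed library was thus above that in all 9 others. The summed RPKM of the 4 receptors was 45.7 ± 31.6 (SD, n = 3) in 2+3d-C cells, 15.0 ± 8.29 in fresh cells, 1.98 ± 0.961 in 5d-U cells and 0.903 ± 0.0617 in 2d-U cells. In F the receptors were more evenly mixed, with 26.7% ± 9.01 of Notch1, 18.6% ± 6.67 of Notch2 and 14.4% ± 6.05 of Notch4.

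The make-up of the ligand transcripts differed too. Dll1 and Jag2 together made up nearly all RPKM of the 4 member ligands in the uncompressed cultures. Their shares were 61.6% ± 6.72 and 33.9% ± 6.43 (SD, n = 3) in 2d-U and 47.0% ± 5.84 and 47.2% ± 2.68 in 5d-U. In 2+3d-C, Jag1 held 85.4%, 71.5% and 54.4%, and Dll4 8.70%, 3.06% and 39.5%. In F, Dll4 held 35.1% ± 7.67, Jag1 32.6% ± 11.5 and Dll1 24.9% ± 3.14. The summed ligand RPKM was 42.4, 8.20 and 14.3 in the compressed libraries (21.6 ± 18.2), which overlapped 11.8 ± 2.19 in 2d-U cells and 12.3 ± 6.75 in 5d-U cells. In F the sum was 41.8 ± 13.6. These shares rest on levels per exon length and were not tested.

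**Figure D3:**
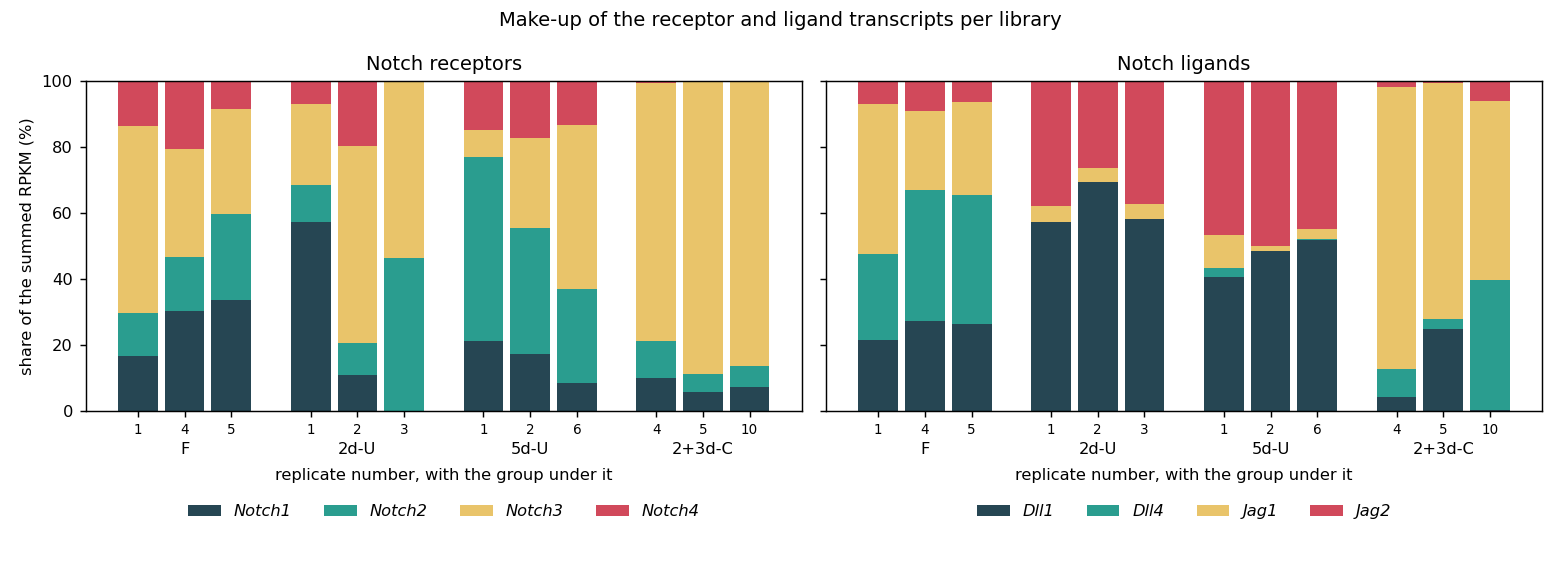
Stacked shares, in percent, of the summed RPKM of the 4 receptors (left) and 4 ligands (right) in each of the 12 libraries, with replicate numbers on the horizontal axis and groups under them. Notch3 fills 78.0% to 88.7% of the receptor bars in 2+3d-C, and the ligand bars change from Dll1 with Jag2 in 2d-U and 5d-U to mostly Jag1 in 2+3d-C.

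The other genes of the pathway were taken from a list of 45 genes in 7 roles, of which 44 were tested. Against 5d-U, 12 rose and 3 fell in 2+3d-C cells, and against 2d-U 14 rose and 2 fell, with median log2 fold changes of 0.77 and 1.36. Over all tested genes, 9.14% rose and 13.4% fell against 5d-U and 16.0% rose and 8.63% fell against 2d-U, with medians of -1.05 and 0. Against F, 1 rose and 2 fell, where 1.94% and 4.47% of all tested genes did. Without 2+3d-C replicate 4, 7 rose and 1 fell against 5d-U, where 1520 of all 27025 tested genes rose and 2279 fell. Without the libraries with silent-family reads, fewer of the pathway genes were called against 5d-U, and so were fewer of all tested genes.

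Of the 5 target genes tested, 3 rose against both uncompressed groups. Heyl, a Hes-related repressor, had 76.9, 34.9 and 164 RPKM in 2+3d-C, 0.187, 0.102 and 0.507 in 5d-U cells, 0.470, 0.138 and 0.273 in 2d-U cells and 44.1, 22.4 and 41.5 in F. Heyl had a log2 fold change of 8.45 against 5d-U (SE 0.88, adjusted p = 2.55e-05) and 1.35 against F (SE 0.64, adjusted p = 0.139). Hey1, its relative, rose by 2.32 against 5d-U (SE 0.65, adjusted p = 0.0198) and by 3.69 against 2d-U (SE 0.69, adjusted p = 0.00159). Nrarp, a feedback inhibitor that Notch induces, rose by 4.52 against 5d-U (SE 0.87, adjusted p = 0.0029) and was at least 122-fold higher than in 2d-U, where it had 0 reads. In 5d-U replicate 1 Heyl had 22 reads and Nrarp 8, near the 19.5 and 9.85 expected from silent-family reads. Hes1 did not pass the test, with 18.8, 50.1 and 37.2 RPKM in 2+3d-C, 19.7, 57.6 and 122 in 5d-U and 12.3 to 14.4 in 2d-U (log2 fold change -0.91, adjusted p = 0.200 against 5d-U and 1.39, 0.0828 against 2d-U).

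Of the 10 genes of receptor cleavage, 3 rose against 5d-U and none fell. Furin, which cleaves the receptor on its way to the surface, rose by 4.20 (SE 0.61, adjusted p = 0.000302). The proteases of the ligand-dependent cleavage were not called, with log2 fold changes of -0.56 for Adam10 (SE 0.54, adjusted p = 0.423) and 0.18 for Adam17 (SE 0.50, adjusted p = 0.796). None of the 7 genes of the nuclear complex was called against 5d-U. Rbpj, the DNA-binding partner of the receptor, had 3.59 ± 2.28 RPKM (SD, n = 3) under compression and 2.57 ± 0.456 in 5d-U cells (log2 fold change 0.48, SE 0.53, adjusted p = 0.487), and the coactivators Maml1 and Maml2 had log2 fold changes of 1.78 and 1.95 (adjusted p = 0.0617 and 0.109).

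Among the 10 inhibitors and genes of receptor turnover, 5 rose against 5d-U and 5 against 2d-U. Dtx3, a Deltex ubiquitin ligase, had 57.2, 84.3 and 64.2 RPKM in 2+3d-C and 7.73 to 8.79 in 5d-U (log2 fold change 3.03, SE 0.41, adjusted p = 0.000193), and it also rose against F (1.58, SE 0.39, adjusted p = 0.0326). Numb, which antagonizes Notch, rose by 2.30 against 5d-U (SE 0.46, adjusted p = 0.00261). The noncanonical ligands split. Dlk1 had 3.76, 4.42 and 2.05 RPKM in 2+3d-C and at most 0.177 in the 6 uncompressed libraries (log2 fold change 5.08 against 5d-U, SE 1.36, adjusted p = 0.0155). Its 23 reads in 5d-U replicate 1 stood beside 21.6 expected from silent-family reads. Dlk2 had no read in any compressed library against 8.11, 28.8 and 20.1 RPKM in 5d-U, at least 217-fold lower (adjusted p = 0.000733).

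Among the glycosyltransferases that modify the receptors, Lfng, which tunes the choice between Delta and Jagged ligands, fell at least 31.1-fold against 5d-U (adjusted p = 0.0233). Its level in 5d-U was 0.243, 4.11 and 2.56 RPKM, and 2d-U libraries had 0 to 0.287. Poglut1, an O-glucosyltransferase, had log2 fold changes of -1.07 against 5d-U (SE 0.39, adjusted p = 0.0628) and -1.41 against 2d-U (SE 0.40, adjusted p = 0.0187). Of the 4 genes of ligand endocytosis, only Neurl1b was called, with no read in 2+3d-C (at least 2.33-fold lower against 5d-U, adjusted p = 0.0451). Its 5d-U libraries had 20, 1 and 8 reads, where 24.1, 0.371 and 4.02 would be expected from silent-family reads, and 2d-U libraries had none. Neurl1a, another Neuralized ubiquitin ligase, had a log2 fold change of -1.91 (SE 1.04, adjusted p = 0.159).

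**Figure D4:**
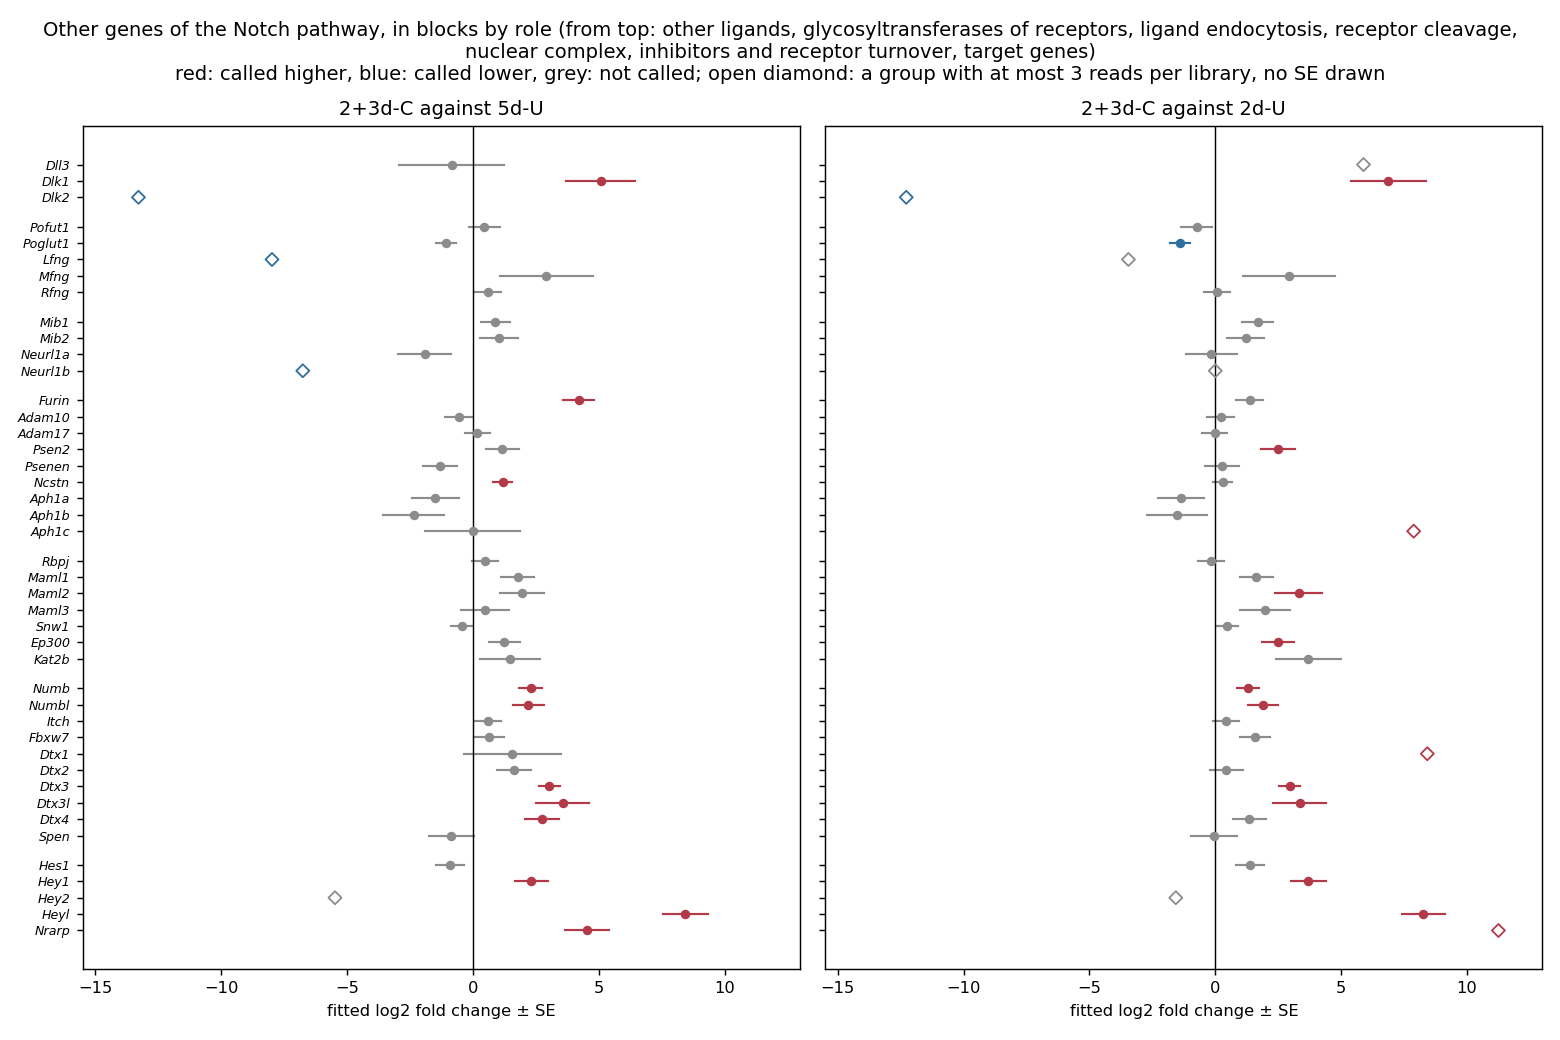
Fitted log2 fold changes with SE of the other pathway genes, 1 left out, in 2+3d-C against 5d-U (left) and 2d-U (right), in blocks by role, with colors for the call; open diamonds mark genes with at most 3 reads in every library of a group, whose position depends on the fit and is no bound. Heyl has a log2 fold change of 8.45 against 5d-U, and the nuclear complex has no call there.

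Markers of smooth muscle cells and pericytes, which are known to express Notch3 and Jag1, were compared beside those genes. The summed level of 11 such markers was 1338 to 1912 CPM in fresh cells, 482 to 645 in 2d-U cells, 639.8 to 1826 in 5d-U cells and 2344 to 2491 under compression. Most of it came from Des (1911 to 2111 CPM in 2+3d-C), which muscle cells express too, and Acta2 was 132, 274 and 276 CPM there against 315 to 368 in F. 6 of the markers (Rgs5, Myh11, Pdgfrb, Abcc9, Kcnj8 and Cnn1) were at 0 in all 2d-U libraries. In each compressed library 10 to 11 were over 3 reads, and the same held in each 5d-U library. The part of these cells in the levels of Notch3 and Jag1 was not tested. The 10 MuSC markers, which include the activation marker Myod1, had reads in all groups, with summed levels of 2690.3 to 6993 CPM in fresh cells, 2135 to 2540.1 in 2d-U cells, 1981 to 2883 in 5d-U cells and 13994 to 15674 under compression. Much of the last came from Myod1 (4160.2 to 8463 CPM) and Sdc4 (3177 to 6309 CPM).

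**Figure D5:**
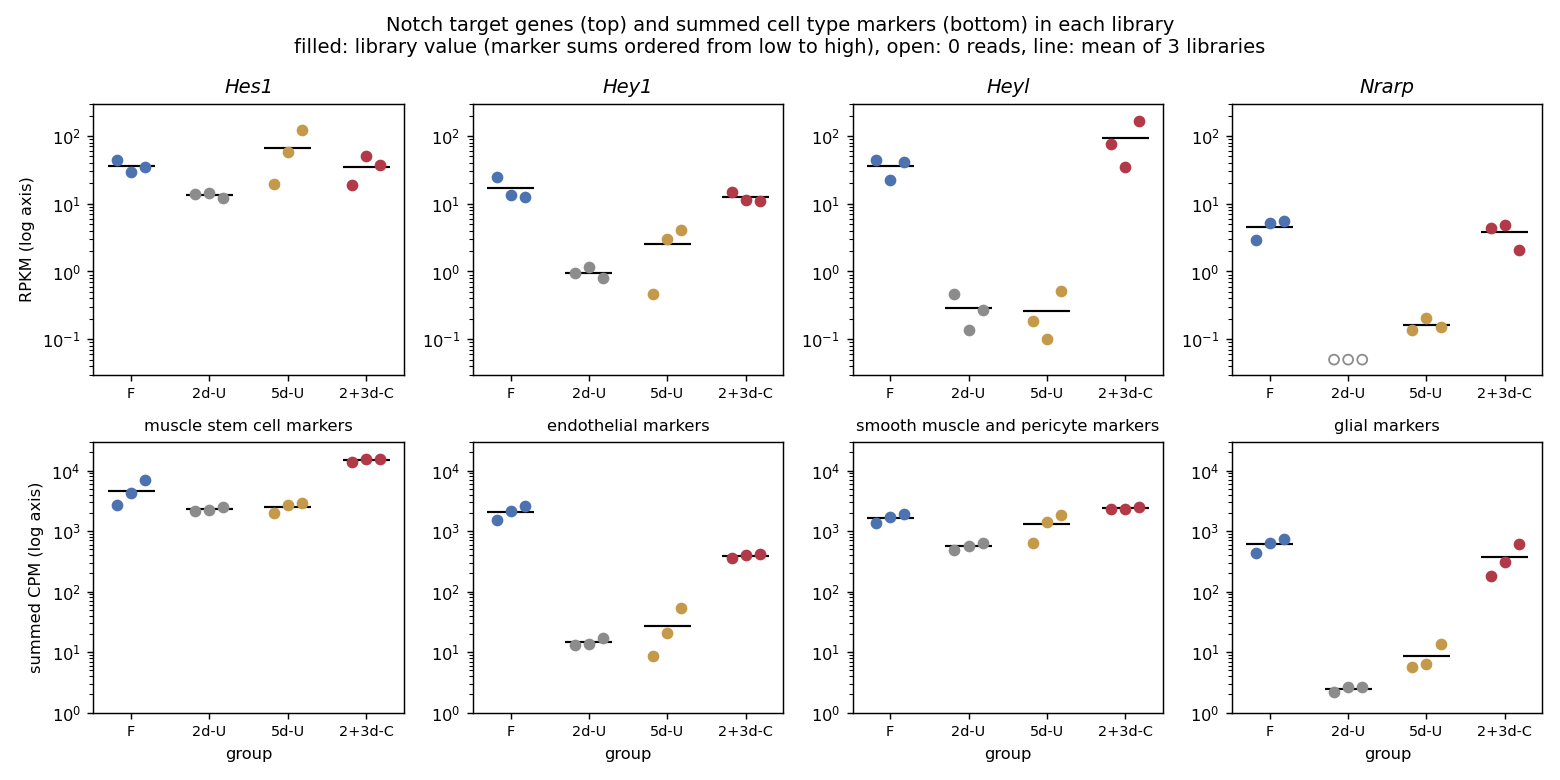
RPKM of the target genes Hes1, Hey1, Heyl and Nrarp (top) and summed CPM of the markers of muscle stem cells, endothelial cells, smooth muscle cells with pericytes and glial cells (bottom) in each library, on log axes, with lines for the mean of 3 libraries. Heyl and Nrarp are near 0 in 2d-U and 5d-U, and the endothelial sum of 359 to 413 CPM in 2+3d-C lies between the fresh and the uncompressed libraries.

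The genes most like each member over the 12 libraries were ranked by Pearson's r of log2 CPM among 10364 tested genes. These had a mean of at least 5 CPM and names that did not start with Gm or end in Rik. The libraries share 4 groups, so the r values describe the pattern over groups more than the spread within them. For Notch3 the closest were Hpse (0.95), Sdc4 (0.948) and Glis3 (0.945), where Sdc4, the MuSC surface proteoglycan syndecan-4, ran from 858 to 2763 CPM in F and 130.5 to 186 in the uncompressed libraries. Notch1 was most like Synj1 (0.985), Lamb2 (0.980) and Igf2r (0.972), and Notch2 most like Etl4 (0.953), Atf7 (0.948) and Itpr2 (0.942). Notch4 was closest to Rasgrp3, Adamtsl5 and Sfrp1 (0.948, 0.946 and 0.946). Among the ligands, Dll4 followed B3gnt3 (0.996), Ace (0.989) and Olr1 (0.989), and Jag1 followed Sbno2 (0.992), Nfkbiz (0.986) and Dram1 (0.983). Dll1 was closest to Gas2, Crat and Tmc6 (0.975, 0.966 and 0.964), and Jag2 to Kcnn4, Rasa4 and Ap1g2 (0.982, 0.964 and 0.963).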

How the data were processed

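RNA from 12 libraries was amplified with SMART-seq v4 and read as single ends of 75 bases. The authors deposited raw counts per gene, made with the nf-core RNA-seq pipeline, mm10 and featureCounts 1.6.4 over GENCODE exons without strand; a merged table of the series was not used here. The deposited counts of the 12 libraries were tested in 1 fit with edgeR 4.0.16 (R 4.3.3), using TMM scaling, filterByExpr, the quasi-likelihood F test (two-sided) and Benjamini-Hochberg adjustment over 22635 genes. DESeq2 1.42.0 was an alternative. RPKM used exon lengths in the files and library sizes scaled by TMM, and a prior count of 2 entered log2 CPM. Folds against groups with at most 3 reads in every library were set against a floor of 3 reads per library and written as bounds; intervals are at 95%. No pair of libraries within a group agreed within counting noise. The authors' fitted comparisons were not used. Other alternatives were no TMM, no filter, a minimum mean of 5 CPM, the compared groups alone, a replicate block, 3 treatments of reads on silent families (subtracted, as a model term, or libraries over 0.5 reads per kb left out) and leaving out each of 12 libraries. 2+3d-C shares no replicate number with 5d-U or 2d-U, so the replicate block could set it against them only by way of F. Its values for these comparisons cannot show whether a change holds within replicates. The scripts were tested on simulated data. Members and gene lists were chosen with earlier results of these data known. Besides the 8 members, the text names for each role the 2 pathway genes with the smallest p against 5d-U, some fixed genes (Adam10, Adam17, Rbpj, Hes1, Hey1 and Heyl), the 3 genes most like each member and the 2 most abundant markers of a list. The value of 1 pathway gene is not reported here, though it is among the counts.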

Additional observations from a re-analysis of the deposited data

How the results depend on the processing

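No called member changed direction under an alternative. Directions of single pathway genes were not compared. Fewer of all tested genes were called in every comparison without the libraries with silent-family reads. Against 5d-U, 2394 of 49901 genes were higher and 2973 lower without a filter. Against 2d-U, 1090 of 22635 were higher and 836 lower with the replicate block, and 2351 and 1641 of 13635 with the 2 groups alone. For 2d-U against F, 1271 of 22635 were higher and 3873 lower with the model term. Against 5d-U, 4 members were called, and 7 without a filter on low counts, 1 without the libraries with silent-family reads and 4 to 6 with a library left out. Against 2d-U, 6 were called, and 4 with the replicate block, 4 with the libraries of the 2 groups alone, 4 without the libraries with silent-family reads and 5 to 7 with a library left out. Against F, none was called in 2+3d-C, and 3 by DESeq2, 1 without TMM and 3 without a filter. The count was 3 with the replicate block and 0 to 3 with a library left out. Of all 22635 tested genes, 833 were higher and 3320 lower by DESeq2. These counts were 142 and 1217 without TMM, 270 and 1690 with the replicate block and 554 and 2240 of 49901 without a filter. For 2d-U against F, 6 were called, and 3 with a model term for silent-family reads, 3 without those libraries and 3 to 6 with a library left out. For 5d-U against 2d-U, none was called, and 1 by DESeq2, 1 without a filter and 1 with the replicate block. The count was 0 to 1 with a library left out. Of all 22635 tested genes, 2486 were higher and 403 lower by DESeq2, and 642 and 33 with the replicate block. Without a filter, 1867 of 49901 were higher and 199 lower. DESeq2 called 2797 higher and 3826 lower for 5d-U against F, and the 2 groups alone gave 3259 and 2805 of 21832. For 5d-U against F, 3 were called, and 5 by DESeq2, 5 without a filter, 5 with the libraries of the 2 groups alone, 0 without the libraries with silent-family reads and 3 to 4 with a library left out. Of the other pathway genes, 15 were called against 5d-U, 4 with the replicate block, 4 without the libraries with silent-family reads and 8 to 16 with a library left out. Against 2d-U, 16 were called, 10 without TMM, 5 with the replicate block, 10 without the libraries with silent-family reads and 8 to 17 with a library left out (8 without 2d-U replicate 3 and 9 without 2d-U replicate 1). Against F, 3 were called, 9 by DESeq2, 6 without a filter, 0 with the model term, 0 without the libraries with silent-family reads and 0 to 8 with a library left out (8 without F replicate 1, 0 without F replicate 4 or 5). The calls over all tested genes shifted as well. With the replicate block, 728 of 22635 were higher and 3098 lower against 5d-U. Against F, 1185 of 27750 were higher and 8878 lower without F replicate 1. Without F replicate 4 these counts were 26 and 222 of 23830, and without F replicate 5 they were 40 and 265 of 22743. The cause of these shifts was not tested. Same-numbered libraries deviated from their group means with correlations of -0.42 to 0.03. With 3 libraries per group, these values cannot show whether libraries of the same number share animals or cultures. Through F alone, the replicate block gave 2+3d-C log2 fold changes of 0.93 for Dll4 (adjusted p = 0.778) and 7.63 for Notch3 against 5d-U. Against 2d-U it gave 1.03 for Notch1 (0.937) and 3.08 for Notch2 (0.357). Notch4, Dll4, Dll1 and Jag2 each had under 10 reads in at least 1 compressed library. Dll4 and Jag2 had their fewest reads in replicate 5, the shallowest library (8 and 3). Dll1 had 3 reads in replicate 10 and 71 in replicate 5, and Notch4 had 0 and 1. The part of depth in these counts was not tested.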

Other observations

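Markers of further cell types also differed between the groups. The summed level of 8 fibroadipogenic markers was 2451 to 6322 CPM in fresh cells, 202 to 242 in 2d-U cells, 11.5 to 192 in 5d-U cells and 697 to 1133 under compression. Nearly all of the 2d-U sum was Cd34, at 201 to 231 CPM, whereas 5 of the 8 markers were at 0 in every 2d-U library. Cd34 was also 136 CPM in replicate 1 of 5d-U, and 153 to 240 CPM under compression. Dcn, a proteoglycan of fibroblasts, was 154, 439 and 186 CPM in 2+3d-C and at most 40.3 in the uncompressed libraries. The 5 glial markers summed to 441 to 752 CPM in fresh cells, 2.17 to 2.62 in 2d-U cells, 5.76 to 13.6 in 5d-U cells and 183 to 611 under compression, with Mbp, a myelin protein, at 174, 527 and 112 CPM there. The 9 immune markers summed to 515 to 1893 CPM in fresh cells, 0.709 to 2.44 in 2d-U cells, 1.47 to 141 in 5d-U cells and 7.54 to 114 under compression. In 2+3d-C, Lyz2 was 28.0, 70.3 and 5.21 CPM and S100a8 19.5, 37.8 and 0, whereas Ptprc, Adgre1 and Cd3e were at 0 in every library. The 7 markers of mature myofibers summed to 29.1 to 2563 CPM in fresh cells, 52.3 to 89.7 in 2d-U cells, 165 to 3513 in 5d-U cells and 66.1 to 199 under compression. The part of such cells in the Notch levels was not tested.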
